A study of Mus musculus with 6 samples.

Results

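The genes described here are the skin kallikreins Klk5, Klk6, Klk7, Klk8, Klk10, Klk11, Klk13 and Klk14, their inhibitor gene Spink5, and St14, which encodes the membrane protease matriptase. They were found by taking every probe set of the Affymetrix mouse genome array that is annotated to exactly 1 of these symbols. Of the 10 genes, 9 had a probe set, each of them 1, among 18193 genes and 45037 probe sets in all, and Klk14 was not measured. The cells were bulge epithelial cells of whisker (vibrissa) follicles, taken from mice aged 7 to 8 weeks, which the study divided between NFFSE medium and NFFS medium and cultured in 3D in atelocollagen gel for 6 days. The 3 NFFSE cultures and the 3 NFFS cultures shared Noggin, FGF-7, FGF-10 and the sonic hedgehog agonist SAG, and only NFFSE medium held EGF. The experiment was run 3 times, which gave 6 arrays, 1 per culture, and this number limits the precision. The strain of the mice used for the arrays is not given in the sources used here, and the cultures started from all cells of the dissected bulge, so that they are mixed populations. The comparison asks how these genes differ between cells that received EGF and cells that did not.

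Kallikreins are secreted serine proteases that are made as inactive precursors and act in the upper epidermis. There KLK5, KLK7 and KLK14 cut the proteins that hold cornified cells together, and so let the skin shed. KLK5 can activate itself and the precursors of KLK7 and KLK14 in work with human enzymes, and matriptase starts the same cascade in mouse epidermis. Spink5 encodes LEKTI, a chain of inhibitor domains that blocks KLK5, KLK7 and KLK14, and its loss causes Netherton syndrome, in which the barrier is cut too early.

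The values are the authors' MAS5 signals, an intensity on a linear scale. Differences are NFFSE minus NFFS on the log2 scale from limma, which fits a linear model per probe set and moderates its variance by that of the others, and a gene was called at an adjusted p under 0.05 (Benjamini-Hochberg over all probe sets). Signals of different probe sets cannot be ranked against each other, so that each gene is compared only between media. In these bulk cultures a smaller share of expressing cells and less RNA per cell cannot be told apart. For the marker counts that follow, the shares over all probe sets were 7.69% called higher in NFFSE and 12.7% called lower. Of 5 epithelial and basal keratinocyte markers, Krt14 and Epcam were 1.77- and 1.57-fold higher in NFFSE and 3 were not called, among them Krt5, at 32291 to 37329 in NFFSE and 25999 to 30368 in NFFS. The bulge markers Cd34 and Itga6 were higher in NFFSE while Krt15, Lhx2 and Sox9 were lower. Of 10 markers of spinous and granular keratinocytes, the layers in which kallikreins are normally made, 8 were higher in NFFSE. Lor (adjusted p = 0.163, limma) and Flg (0.465) were not called. The summed signal of the 10, most of it from Krtdap, Krt10 and Sbsn, was 44101 to 47784 on NFFSE arrays and 8665 to 16195 on NFFS arrays. Of 6 markers of the isthmus and infundibulum, Lrig1, Cst6, Krt79 and Lgr6 were lower in NFFSE, by 2.14- to 3.97-fold, Plet1 was 4.37-fold higher and Krt17 was not called. Of 5 sebocyte markers, Scd1 was higher, Elovl3 was lower and 3 were not called. Markers of leukocytes (6), melanocytes (5) and endothelium (4) gave no call (adjusted p of 0.145 or above), and 3 of 9 fibroblast markers were lower in NFFSE, with summed signals of 508 to 516 in NFFSE and 713 to 942 in NFFS. For the Gapdh control, whose 3' signal over its 5' signal reads RNA integrity, this log2 ratio was -0.38 to -0.36 in NFFSE and -0.63 to -0.60 in NFFS. For the beta-actin control it overlapped, at 0.26 to 0.29 in NFFSE and 0.26 to 0.37 in NFFS. The part of these differences in the results below was not tested.

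The kallikrein family split in 2 directions between the media. Spink5, Klk13, Klk10, Klk11 and Klk8 were higher in NFFSE, by 11.8-fold for Spink5 and by 3.24- to 9.17-fold for the kallikreins, whereas Klk7 and Klk5, which belong to the core of the shedding cascade, were lower by 2.53- and 2.27-fold. Klk6 and St14 did not pass the test. Thus 5 of the 9 measured genes were called higher and 2 lower, whereas of all 45037 probe sets 20.4% were called in either direction, 7.69% higher and 12.7% lower. All NFFSE arrays were above all NFFS arrays for 6 of the 9 genes and below them for 2, against 14.8% and 21.4% of all probe sets, or 36.2% in either direction. The median log2 difference of the 9 genes was 1.70, and that of all probe sets was -0.065.

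**Figure D1:**
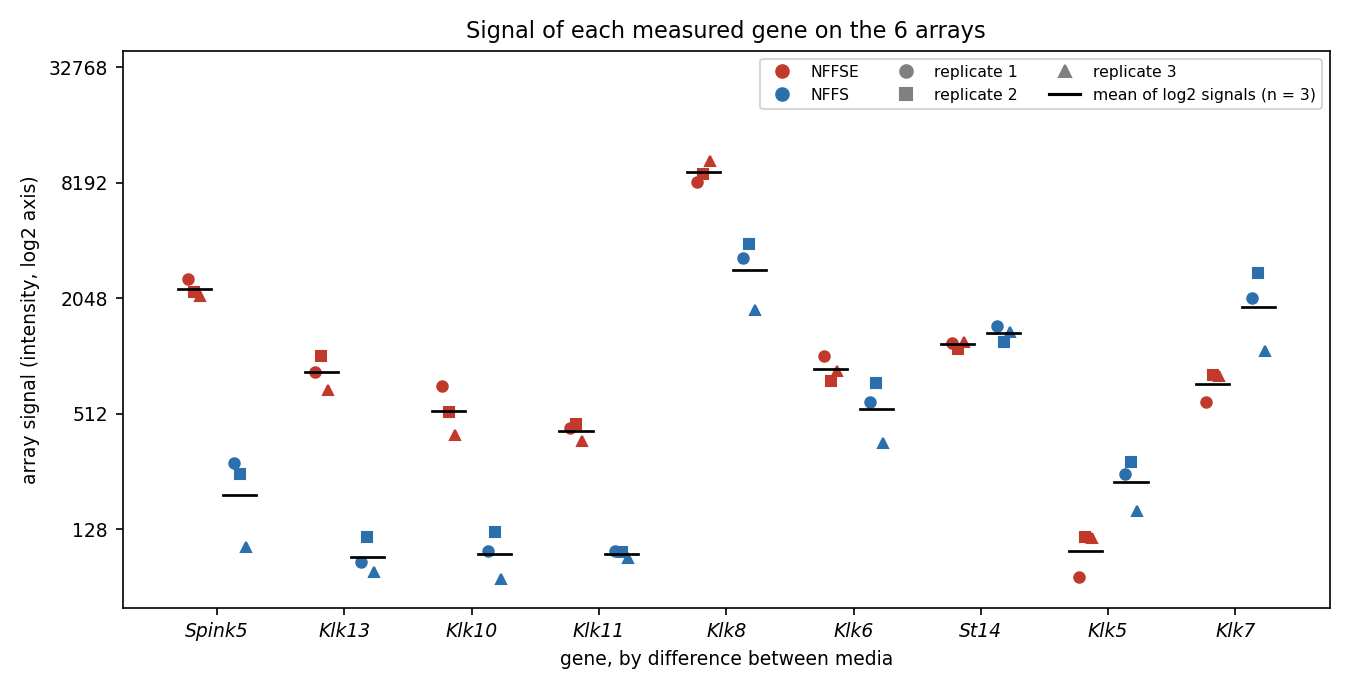
Array signal (intensity, log2 axis) of the 9 measured genes, with NFFSE in red left of NFFS in blue, a symbol for each replicate and a line at the mean of the log2 signals of 3 arrays. All NFFSE points lie above the NFFS points for Spink5, Klk13, Klk10, Klk11, Klk8 and Klk6, all lie below them for Klk5 and Klk7, and those of St14 overlap.

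Spink5, the inhibitor gene, showed the largest difference of the 9. Its signal was 2581, 2221 and 2100.4 on the NFFSE arrays, against 284, 250.3 and 103 on the NFFS arrays. The lowest NFFSE array thus lay far above the highest NFFS array, and NFFS replicate 3 was the lowest of its medium. The log2 difference was 3.56 (SE 0.31, adjusted p = 3.71e-05, limma), and 0.802% of all probe sets differed by more in either direction. The gene lies on chromosome 18 (GRCm38.p6, 43959545 to 44022487), apart from the kallikreins.

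Klk13, a trypsin-like kallikrein, had the next largest difference. It read 851, 1032 and 682 in NFFSE, against 86.8, 117 and 76.5 in NFFS. The difference was 3.20 on the log2 scale (SE 0.21, adjusted p = 7.12e-06, limma). Klk10, described in human breast as an epithelial gene lost in tumor cells, read 720.1, 522 and 398 in NFFSE, against 98.4, 125 and 70.4 in NFFS. It differed by 2.48 on the log2 scale (SE 0.27, adjusted p = 0.000121, limma), and both the brightest and the dimmest NFFSE array were well clear of the NFFS arrays. Klk11, also trypsin-like, read 435, 456 and 370.4 in NFFSE, against 98.3, 97.4 and 90.9 in NFFS. The NFFS arrays of Klk11 were the closest to each other of any of these genes (SD 4.05 on a mean of 95.5), and they lay 2.13 below the NFFSE arrays on the log2 scale (SE 0.17, adjusted p = 2.42e-05, limma). No signal of the 9 genes was at or under 22.7, the highest signal of the TrpnX control probe sets, so that none of these folds was written as a bound. The NFFS signals of Klk13, Klk10 and Klk11, at 70.4 to 125, were not far above the array medians of all probe sets, 66.2 to 70.5 in NFFS. Those of Klk5 in NFFSE, at 72.8 to 117, were likewise near medians of 56.3 to 64.8. How much of these low signals was unspecific was not tested, so that the true folds of these genes may differ.

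Klk8, called neuropsin in the brain, where it was first found, and a protease of the upper epidermis as well, was called higher by a smaller factor. Its signal was 8313, 9089 and 10604 in NFFSE, against 3332, 3956 and 1791 in NFFS. It differed by 1.70 on the log2 scale (SE 0.25, adjusted p = 0.000813, limma). This call ended with the methods' t-test (adjusted p = 0.0674), whereas those of Spink5, Klk10, Klk11 and Klk13 were kept under all 16 alternatives, with adjusted p up to 0.0309.

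Klk7 and Klk5 moved the other way. Klk7, a chymotrypsin-like enzyme that cuts corneodesmosin and desmocollin 1, read 593, 820 and 804 in NFFSE, against 2068, 2788 and 1096 in NFFS. The difference was -1.34 on the log2 scale (SE 0.29, adjusted p = 0.00753, limma). Klk5, the trypsin-like enzyme at the head of the cascade, read 72.8, 117 and 116 in NFFSE, against 249.8, 288 and 159 in NFFS, and differed by -1.18 on the log2 scale (SE 0.29, adjusted p = 0.0145, limma). Every NFFSE array of both genes was below every NFFS array, with NFFS replicate 3 the nearest to the NFFSE arrays. These 2 calls were less firm than the increases. Both ended with a floor of 32 under the signals (adjusted p = 0.0989 for Klk7 and 0.0874 for Klk5, limma). All signals of both genes were above 32 and their differences were unchanged. The floor therefore acted through the moderated variance and the adjustment over all probe sets. Both calls also ended when the spread was modelled with no intensity trend (0.0909 and 0.0785) and with the methods' t-test (0.145 and 0.123). That of Klk5 also ended without NFFS replicate 1 (0.0601) or NFFS replicate 2 (0.0561). Without NFFS replicate 3 the differences were larger, -1.72 for Klk7 and -1.43 for Klk5.

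Klk6, known as neurosin and expressed in the nervous system and in skin, read 1030, 759 and 852 in NFFSE, against 592, 747 and 362 in NFFS. The arrays were parted by the narrow gap between NFFSE replicate 2 and NFFS replicate 2. The log2 difference was 0.69 (95% interval 0.16 to 1.21, adjusted p = 0.0691, limma), and the gene was called higher with the replicate number as a block (adjusted p = 0.0342, limma), with arrays centered on their medians (0.0263), with dim probe sets left out (0.0482) and without NFFS replicate 2 (0.0179). Without NFFS replicate 3 the difference was 0.39 (adjusted p = 0.181, limma).

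St14, on chromosome 9 (GRCm38.p6, 31088590 to 31131811), was the one gene whose arrays overlapped. It read 1206, 1112 and 1219 in NFFSE, against 1480, 1207 and 1377 in NFFS, a log2 difference of -0.20 with a 95% interval of -0.45 to 0.061 (adjusted p = 0.292, limma). The interval leaves room for a decrease of up to 0.45 and an increase of up to 0.061, and the sign turned to 0.0049 with arrays centered on their medians. The protease that starts the cascade thus had the smallest difference of the 9 genes.

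The 8 kallikreins lie within 170.3 kb of chromosome 7 (GRCm38.p6, 43680880 to 43851181), in the order Klk14, Klk13, Klk11, Klk10, Klk8, Klk7, Klk6 and Klk5, with Klk12 between Klk13 and Klk11 and Klk9 between Klk10 and Klk8. Read in this order, the lowest NFFSE signal exceeded the highest NFFS signal at each gene from Klk13 to Klk8, and the direction changed between Klk8 and Klk7, which lie 7.47 kb apart. Klk12 had a log2 difference of 1.74 (adjusted p = 0.0881, limma), with 2 of the 3 NFFS arrays at background and at least a 1.75-fold difference, and Klk9 had 0.65 (adjusted p = 0.19, limma). On the far side, Klk6, at 0.69 and not called, lay between Klk7 and Klk5, both of which were lower. Outside the stretch, Ctu1, a tRNA-modifying enzyme next to Klk14, had a log2 difference of 0.23 (adjusted p = 0.389, limma), and Klk4, an enzyme of tooth enamel, was dim in both media (29.7 ± 12.4 in NFFSE and 28.0 ± 10.5 in NFFS, SD, n = 3 each). Neighboring kallikreins therefore did not share 1 direction of difference.

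**Figure D2:**
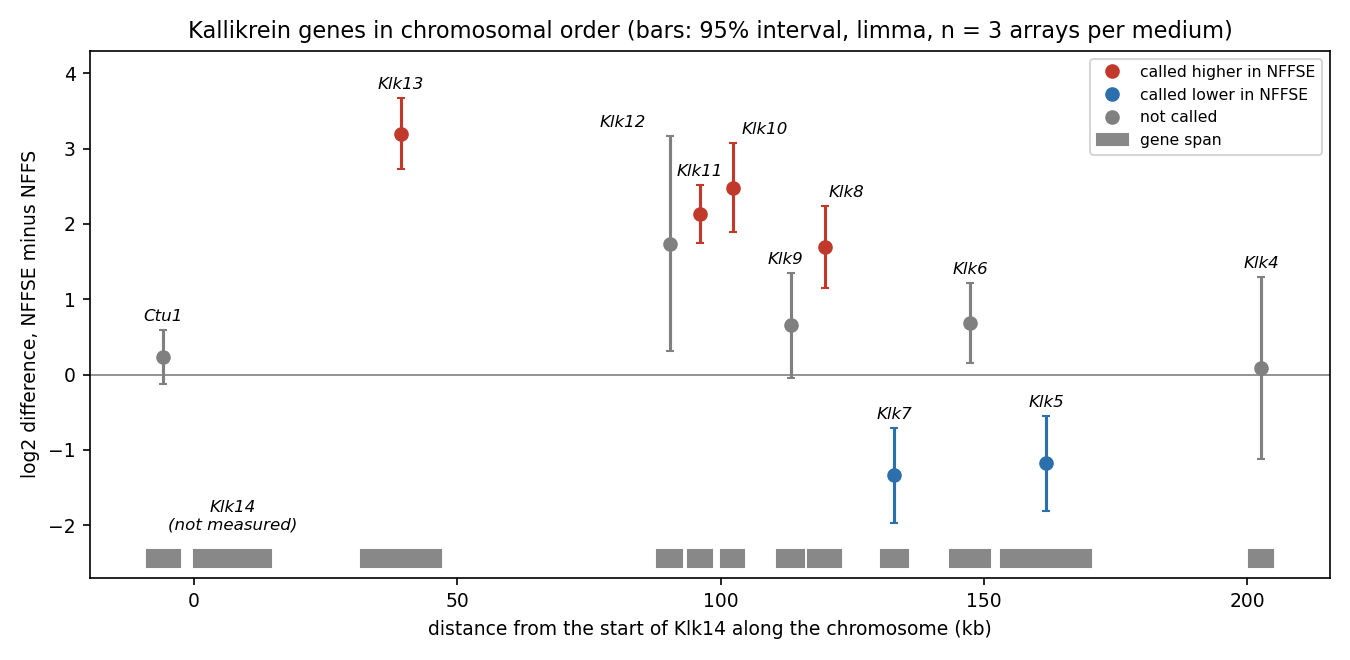
Log2 difference between media (vertical axis, NFFSE minus NFFS) of the kallikrein genes and Ctu1 against distance along the chromosome from the start of Klk14 in kb, with gray boxes for the span of each gene. Points are limma estimates with 95% intervals, red if called higher, blue if called lower and gray if not called, and the sign changes from 1.70 at Klk8 to -1.34 at Klk7.

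Starts of 8 of the 10 genes, all of them kallikreins, were found in a RefSeq table of promoters (GRCm38.p6). It gave 10 promoters of 300 bases, from 250 bases before a start to 50 after it, since Klk6 and Klk11 have 2 starts there. Those of Klk5 and Klk14 lie inside the gene spans, which begin at 43834157 and 43680880. The bases just before the beginning of these 2 spans were not searched. The promoters of the 2 kallikreins with the largest increases, of Klk8 and Klk7, between which the direction changed, and of Klk5 are shown so that the genes that moved apart can be compared. All are on the plus strand, 5′ to 3′, and capitals mark matches to CCNCNCCC on either strand, the short GC-rich box that Krüppel-like factors and SP factors can bind. They lie at chr7:43712317-43712616 for Klk13, chr7:43780804-43781103 for Klk10, chr7:43797327-43797626 for Klk8, chr7:43811044-43811343 for Klk7 and chr7:43842019-43842318 for Klk5.
Klk13: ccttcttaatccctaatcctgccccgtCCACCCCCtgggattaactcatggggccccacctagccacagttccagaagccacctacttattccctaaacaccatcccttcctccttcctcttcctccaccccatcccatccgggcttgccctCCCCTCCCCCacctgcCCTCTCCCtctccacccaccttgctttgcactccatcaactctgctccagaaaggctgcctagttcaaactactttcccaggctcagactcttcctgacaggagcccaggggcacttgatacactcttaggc
Klk10: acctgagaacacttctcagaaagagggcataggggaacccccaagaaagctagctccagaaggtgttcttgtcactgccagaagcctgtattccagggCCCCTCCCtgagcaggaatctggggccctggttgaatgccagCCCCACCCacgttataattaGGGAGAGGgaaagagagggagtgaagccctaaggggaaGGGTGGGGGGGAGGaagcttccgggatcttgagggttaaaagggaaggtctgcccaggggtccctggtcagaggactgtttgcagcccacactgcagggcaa
Klk8: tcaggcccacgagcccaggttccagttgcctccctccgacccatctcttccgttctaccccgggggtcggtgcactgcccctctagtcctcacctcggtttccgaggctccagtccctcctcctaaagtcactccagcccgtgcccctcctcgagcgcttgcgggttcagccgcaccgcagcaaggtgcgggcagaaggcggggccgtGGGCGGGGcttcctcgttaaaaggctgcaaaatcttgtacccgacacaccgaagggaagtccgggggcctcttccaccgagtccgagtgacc
Klk7: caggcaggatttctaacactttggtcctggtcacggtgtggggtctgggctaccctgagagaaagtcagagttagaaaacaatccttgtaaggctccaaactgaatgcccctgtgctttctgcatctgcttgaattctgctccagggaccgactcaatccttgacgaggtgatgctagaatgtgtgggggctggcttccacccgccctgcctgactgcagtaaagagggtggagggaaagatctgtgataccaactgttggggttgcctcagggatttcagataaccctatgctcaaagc
Klk5: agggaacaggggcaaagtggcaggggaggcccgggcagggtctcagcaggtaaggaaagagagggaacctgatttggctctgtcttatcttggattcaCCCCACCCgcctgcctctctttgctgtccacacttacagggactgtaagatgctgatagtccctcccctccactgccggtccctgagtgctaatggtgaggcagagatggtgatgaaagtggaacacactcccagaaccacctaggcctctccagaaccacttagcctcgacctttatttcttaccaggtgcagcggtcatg
The Klk10 promoter held 5 such matches, of which 2 overlap, and the Klk13 promoter held 4, of which 2 overlap, those of Klk8 and Klk5 held 1 each, and that of Klk7 held 0. The promoters at the 2 starts of Klk11, which was called higher, held 0 and 1, as did those of Klk7 and Klk5, which were called lower. A link between the number of matches and the direction of difference was not tested. Of the 10 promoters, 7 held at least 1 match, against 49.5% of all 32851 promoters in the table, and 12.5% of all promoters held at least 4. TGANTCA, the site of AP-1, the JUN and FOS dimers that growth factors induce, was found in 0 of the 10 promoters (7.81% of all), as were AACNNGTT, the site of grainyhead factors (4.2% of all), and TATAAA (13.6% of all), each searched on both strands. A match is a string of letters and not a measured binding site, and the absence of one holds for these 300 bases only.

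Most of these genes were low on 1 of the NFFS arrays and high on another. On NFFS replicate 3, 8 of the 9 genes were below the mean of the other 2 NFFS arrays, by 1.37 for Spink5, 1.13 for Klk7, 1.02 for Klk8 and 0.88 for Klk6 on the log2 scale, and only St14 was above it, by 0.043. The median deviation over the 9 genes was -0.75 on this array, and that over all probe sets that were not dim was 0.0084. The SD over those probe sets was 0.51, and 5.12% of them were at or below -0.75. This is a share of single probe sets, whereas -0.75 is a median, so that it does not measure how unusual the shift of the 9 genes was. On NFFS replicate 2 the median over the 9 genes was 0.55, with only St14 below the other 2 arrays, and on NFFS replicate 1 it was 0.20. Each deviation is taken against the other 2 arrays, so that a low replicate 3 and a high replicate 2 are partly the same fact. Of the 10 markers of spinous and granular keratinocytes, the suprabasal keratins Krt10 and Krt1 were low on NFFS replicate 3, with deviations of -1.15 and -0.81. Krtdap, Sbsn, Grhl3, Tgm1 and Tgm3 were also lowest there among the NFFS arrays, while Lor, Flg and Ivl were not. Ivl, whose protein is built into the cornified envelope, was at 0.31 and the bulge marker Cd34 at 0.22. Klk8 and Klk7, which differed in opposite directions between the media, were thus low together on NFFS replicate 3 and high together on NFFS replicate 2. The log2 signal of Klk8 minus that of Klk7 was 3.81, 3.47 and 3.72 in NFFSE, against 0.69, 0.50 and 0.71 in NFFS, where these values were closer between arrays than those of either gene alone. That of Spink5 minus Klk7 was 2.12, 1.44 and 1.39 in NFFSE, against -2.87, -3.48 and -3.41 in NFFS. These ratios compare the media only and not the amounts of the 2 transcripts. On the NFFSE arrays the median deviation over the 9 genes was -0.052 to 0.051, but single genes deviated in both directions. On NFFSE replicate 1, Klk10 was at 0.66 and Klk5 at -0.68.

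**Figure D3:**
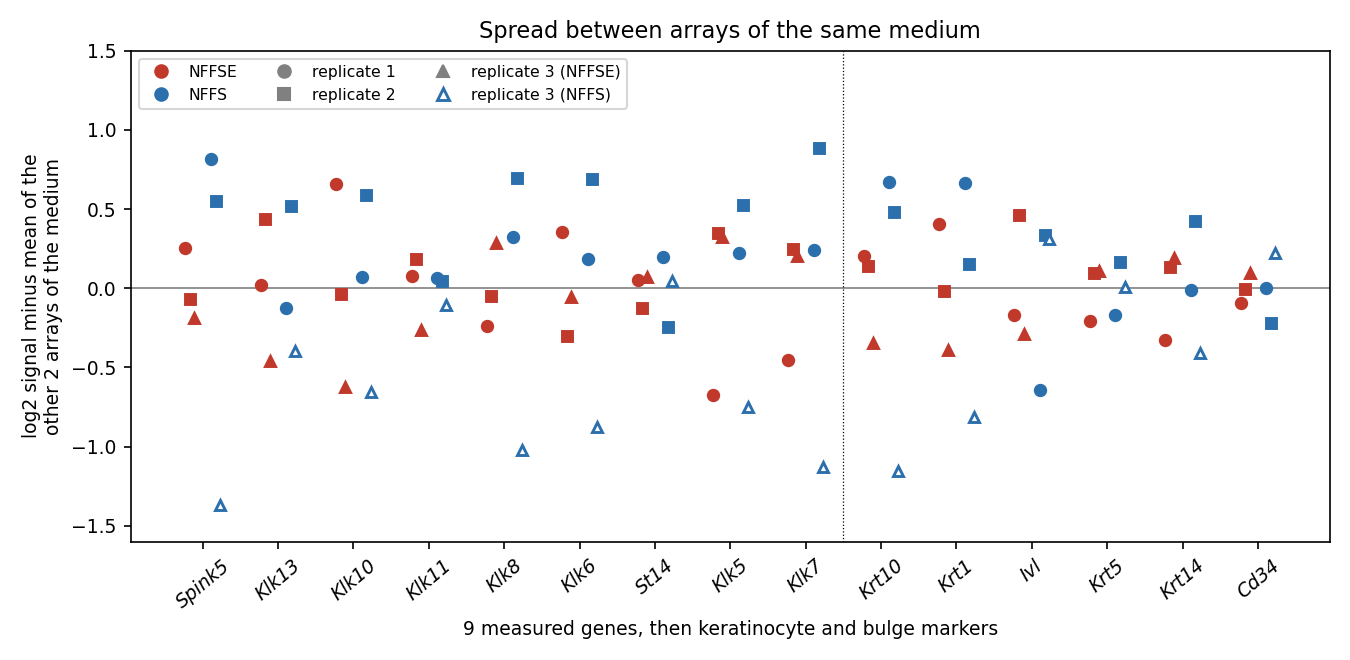
Log2 signal of each array minus the mean of the other 2 arrays of its medium (vertical axis) for the 9 genes and 6 markers, with NFFSE in red left of NFFS in blue and a symbol for each replicate. The open triangles, NFFS replicate 3, lie below 0 for 8 of the 9 genes and reach -1.37 at Spink5, and they also lie below 0 for Krt10, Krt1 and Krt14. The blue squares, NFFS replicate 2, lie above 0 for each of the 9 genes except St14.

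**Figure D4:**
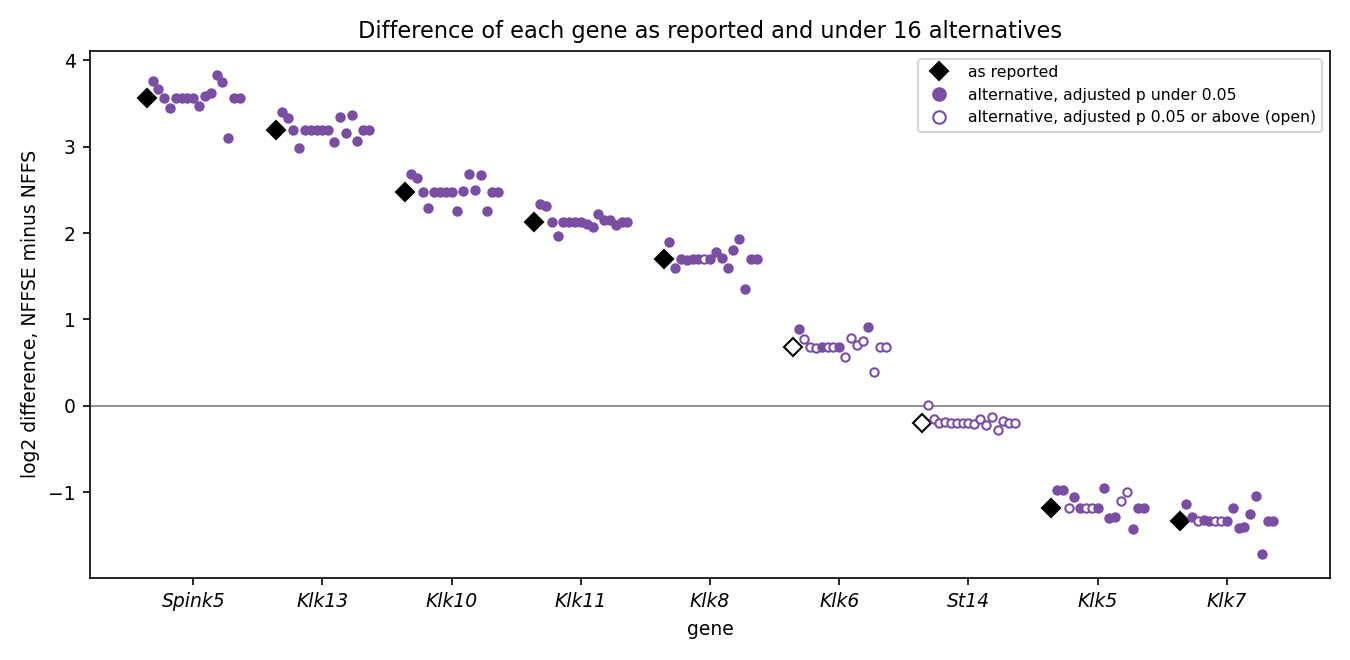
Log2 difference (vertical axis, NFFSE minus NFFS) of the 9 genes as reported (diamonds) and under 16 alternative settings (circles), both open where the adjusted p was 0.05 or above. Spink5, Klk13, Klk10 and Klk11 are filled throughout, Klk8 has 1 open circle, Klk5 and Klk7 have several, Klk6 has both, and St14 is open throughout.

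Other inhibitors of serine proteases were mostly higher in NFFSE where they were called. Of 15 measured, 5 were called higher, 2 lower and 8 neither, with a median log2 difference of 0.80. Over all probe sets, 7.69% were called higher and 12.7% lower. Slpi, a secreted inhibitor that blocks KLK7 among other enzymes, read 3245, 3544 and 2290 in NFFSE, against 202, 209 and 195 in NFFS, a 14.7-fold difference (adjusted p = 6.71e-07, limma). Spint1 and Spint2 encode HAI-1 and HAI-2, the membrane inhibitors of matriptase, and were 1.74- and 1.34-fold higher, while St14 itself was not called. The call of Spint1 ended under 6 of the 16 alternatives and that of Spint2 under 4, so that neither is as firm as Slpi, which was kept under all of them. Serpinb6a, an intracellular serpin with close paralogs that its probe set may not tell apart, was 1.96-fold higher, and its relative Serpinb6c, at background on all 3 NFFS arrays, was higher by at least 2.27-fold, with a call that ended under 7 of the alternatives. The 2 that were lower were Spink8, a member of the Spink5 family (at least 3.99-fold), and A2ml1, an alpha-2-macroglobulin-like inhibitor (at least 2.82-fold). Both were at background on 2 of the 3 NFFSE arrays, and their calls ended under 5 and 10 of the alternatives.

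Partner proteases, the membrane-anchored and secreted serine proteases outside the kallikrein family, were called in 1 direction. Of 18 measured, 7 were higher in NFFSE and 11 were not called, with a median log2 difference of 1.05. The shares of all probe sets were 7.69% higher and 12.7% lower. Tmprss11e, a transmembrane protease of squamous epithelia also called DESC1, read 1074, 1159 and 680.2 in NFFSE, against 64.9, 89.8 and 52.2 in NFFS, a 14.1-fold difference (adjusted p = 7.49e-06, limma). Plau, which encodes the urokinase plasminogen activator, was 4.05-fold higher and Htra1, a secreted protease of the extracellular matrix, was 2.74-fold higher. The other 4 were Tmprss4 (at least 7.24-fold, with 1 NFFS array at background), Prss22 (2.62-fold), Prss12 (2.06-fold) and Tmprss2 (2.07-fold), and the call of Tmprss2 ended under 8 of the 16 alternatives, among them the replicate block, that of Prss22 under 3, and those of Tmprss4 and Prss12 under 2 each. Prss8, which encodes prostasin, the direct partner of matriptase, read 397, 312 and 225 in NFFSE, against 502, 321 and 412 in NFFS (adjusted p = 0.259, limma). Neither protease of the matriptase and prostasin pair was thus called.

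Of 12 measured kallikreins outside the 10 genes, 0 were called in limma, 2 had an unadjusted p under 0.05 (Klk1 and Klk12), and 8 were dim in both media. In the same fit 20.4% of all probe sets were called. The methods' t-test also called 0 of the 12 kallikreins after adjustment, with 1 at an unadjusted p under 0.05. Klk1, the kallikrein of glands, read 227, 182 and 185 in NFFSE, against 293, 252 and 283 in NFFS, and its 4 probe sets disagreed, since their mean gave a difference of 0.57. Most of the others belong to the Klk1b cluster of glandular kallikreins, whose members are near-identical copies that probe sets can confuse.

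A list of genes of the corneodesmosome, the cornified layer and other substrates, Scnn1a among them, had 9 measured genes. Dsg1b was higher and the other 8 were not called, with a median log2 difference of 0.32. Among all probe sets, 20.4% were called in either direction and 7.69% higher. Dsg1b, a desmoglein 1 that KLK5 can cut, read 878, 699.95 and 853 in NFFSE, against 377, 451 and 350.4 in NFFS (2.07-fold, adjusted p = 0.000686, limma), although close paralogs may share its signal. Cdsn, which encodes corneodesmosin, the classical substrate of KLK5 and KLK7, read 103, 145 and 150.4 in NFFSE, against 129.8, 137 and 64.8 in NFFS. Its log2 difference of 0.32 had a 95% interval of -0.40 to 1.04 (adjusted p = 0.565, limma). Next to Dsg1b by p were Lor, which encodes loricrin of the cornified envelope (0.53, adjusted p = 0.163, limma), Dsc3, a desmocollin of the lower layers (0.23, adjusted p = 0.167, limma), and Dsc1, a desmocollin of the upper layers (0.61, adjusted p = 0.18, limma).

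Of 12 measured receptors, cytokines and peptides that act beside or after these proteases, 5 were called higher in NFFSE, 1 lower and 6 neither, with a median log2 difference of 0.34. For all probe sets the shares were 7.69% higher and 12.7% lower. F2rl1, a receptor in the same list, was not measured. Tslp, a cytokine of barrier damage and itch that rises in mice without Spink5, read 1193, 1431 and 1020.3 in NFFSE, against 50.2, 73.5 and 66.6 in NFFS, a 19.2-fold difference (adjusted p = 8.79e-07, limma). Tnf, which encodes an inflammatory cytokine, was 5.79-fold higher, Mst1r, a receptor tyrosine kinase whose ligand matriptase can activate, was 3.40-fold higher, and that ligand's gene, Mst1, was 2.54-fold higher. The call of Mst1 ended under 5 of the 16 alternatives and that of Tnf under 3. Il18, which encodes a cytokine that keratinocytes store as a precursor, was 1.68-fold higher with a call that ended under 9 of the 16 alternatives. Camp, which encodes the cathelicidin peptide that KLK5 and KLK7 trim in human skin, was the one that was lower, at background on all 3 NFFSE arrays, against 89.5, 189 and 171 in NFFS, a difference of at least 6.28-fold (adjusted p = 0.000266, limma).

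**Figure D5:**
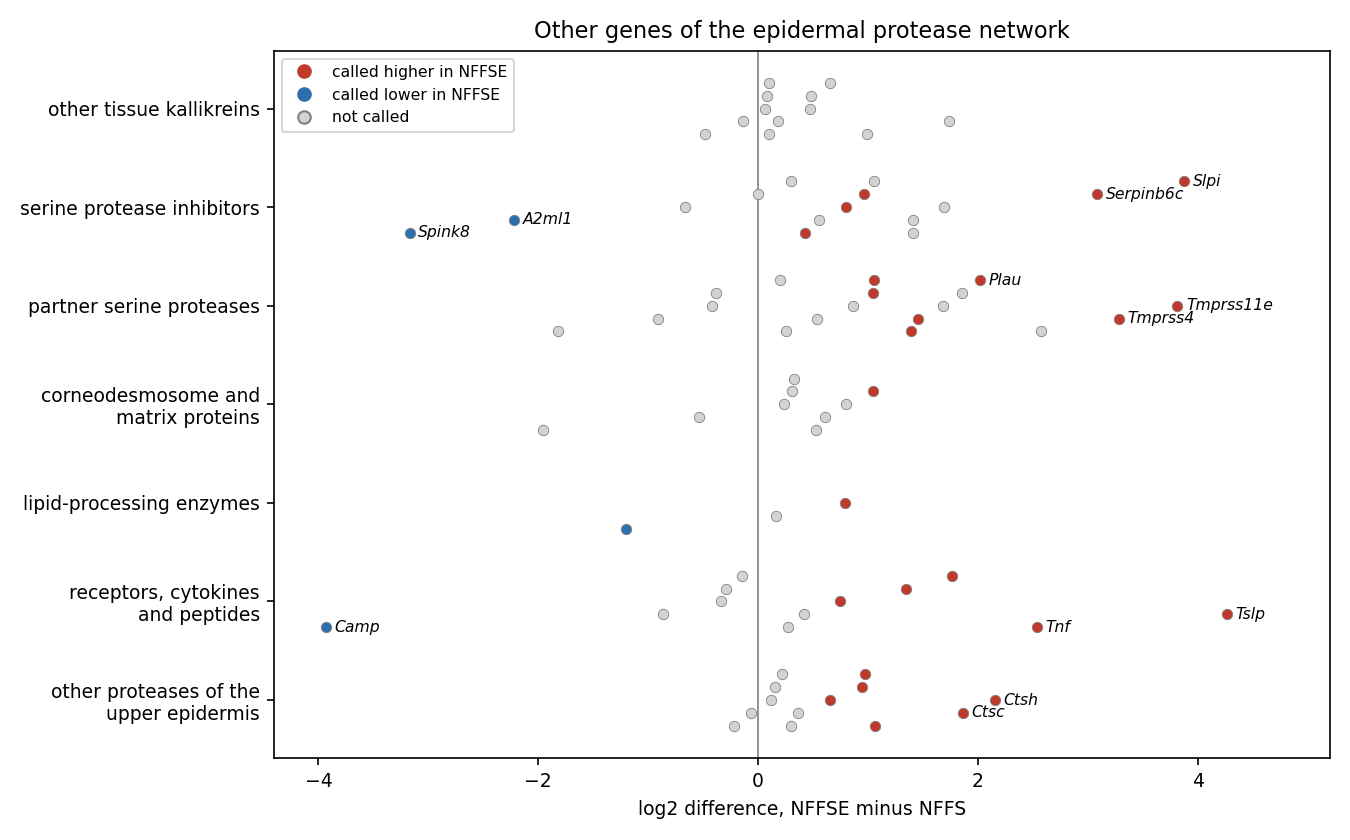
Log2 difference (horizontal axis, NFFSE minus NFFS) of the measured genes in 7 lists of the epidermal protease network, each point 1 gene read from its brightest probe set, red if called higher, blue if called lower and gray if not called. Most called genes lie to the right, up to 4.26 for Tslp, and fitted differences of genes with arrays at background, such as Camp at -3.93, are not bounds.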

How the data were processed

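The arrays measured total RNA of bulge cells after 6 days in NFFSE or NFFS medium, 3 arrays per medium. The authors deposited MAS5 signals, an intensity on a linear scale, for 45101 probe sets. MAS5 is named in the submitters' processing notes without a version. The authors' scaling was read from the values, since the mean with 2% trimmed at each end was 500.003 on all 6 arrays. Background correction and probe set summary are theirs and could not be changed here.

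After 64 control probe sets were left out, log2 signals of 45037 probe sets entered a fit in limma (version 3.58.1, R version 4.3.3, moderated variances, intensity trend) without a pseudocount or filter, adjusted over all probe sets by Benjamini-Hochberg. A probe set was named where the platform annotation gives 1 symbol (34945 probe sets, with 932 of several and 9160 of none). Where a gene of the lists had several probe sets, the brightest on average stood for it. The genes named are the 10 described, the 3 of each list with the smallest p, and others that complete a count or stand for a known partner, these last ones chosen after their values were seen. Members and lists were chosen with earlier results of these data known, and lists are given as counts and medians with no set test. Genes were called dim where both means were below the 40th percentile, and signals at or under 22.7, the highest of 18 TrpnX control values, were called background. A fold against a medium with arrays at background sets signals at or under 22.7 to 22.7 and is written as at least that value. The limma fit and the t-test formula were tested on simulated data.

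The reported fit had no block. Same-numbered arrays may be pairs, because in the series design each repeat split its cells over both media, so that a fit with the replicate number as a block was run as an alternative. The deviations of same-numbered arrays from the means of their media correlated at 0.12, 0.043 and 0.063 over 29666 probe sets. The alternatives were arrays centered on their medians, quantile normalization, a floor of 32, 16 added to the signals, dim probe sets left out, no intensity trend, the methods' t-test (two-tailed, equal variances), the replicate block, 1 array left out in turn, a fit over genes, and the mean of all probe sets of a gene.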

Additional observations from a re-analysis of the deposited data

How the results depend on the processing

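The directions of the 9 genes were kept under all 16 alternatives except for St14, at 0.0049 with arrays centered on their medians. The 5 genes called higher were 4 to 6 under the alternatives, 5 to 6 without 1 array. The 2 called lower were 0 with the floor of 32, 0 in the methods' t-test and 0 with no intensity trend, although both had an unadjusted p under 0.05 in each of these (limma and the t-test), and 1 to 2 without 1 array. Since each gene has 1 probe set, counts of probe sets are the same. Of the genes in the 7 lists, 25 were called higher and 4 lower. These counts were 14 and 2 in the methods' t-test, 13 and 2 with no intensity trend, and 18 to 24 and 2 to 4 without 1 array, the lowest of them without NFFSE replicate 2 for the higher genes and without NFFS replicate 1 for the lower genes. Of these 29 calls, 13 were kept under all alternatives. Leaving out NFFSE replicate 1, 2 or 3 each ended the calls of Serpinb6c, Il18 and Tmprss2, and leaving out NFFS replicate 1, 2 or 3 each ended those of Spink8, A2ml1 and Tmprss2. Spint1 and Asprv1 were lost without NFFSE replicate 1, NFFSE replicate 2 or NFFS replicate 3, and Spint2 and Mst1 without NFFSE replicate 2 or NFFS replicate 3. Further single arrays ended the calls of A2ml1 (NFFSE replicates 1 and 3), Serpinb6c (NFFS replicate 1) and Il18 (NFFS replicates 1 and 3). With the replicate block, Klk6 (0.69, adjusted p = 0.0342, limma) joined the 5 higher genes, the 2 lower genes were kept, and the lists gave 24 higher and 4 lower.

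Centering arrays on their medians gave a median difference of all probe sets of 0.14 in place of -0.065, and 4975 probe sets higher and 3645 lower (57.7% higher) in place of 3463 and 5705 (37.8% higher). The methods' t-test called 1935 and 3003, and limma with no trend 1805 and 3220. With 3 arrays per medium, a p that misses the threshold does not show that a gene was the same in both media.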

Other observations

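Proteases of other classes that work in the upper epidermis were higher in NFFSE where they were called. Of 13 measured, 6 were called higher and 7 were not, with a median log2 difference of 0.36. Across all probe sets, 7.69% were called higher and 12.7% lower. Ctsc, which encodes a lysosomal dipeptidyl peptidase that activates serine proteases of immune cells, read 17532, 20193 and 20616 in NFFSE, against 6162, 5677 and 4334 in NFFS, 3.64-fold higher (adjusted p = 1.8e-05, limma). Ctsh was 4.44-fold higher and Ctsl, a lysosomal protease of follicle and epidermis, was 2.09-fold higher. Blmh and Capn1, which take part in the breakdown of filaggrin, were 1.58- and 1.92-fold higher, and Asprv1, which encodes the protease that processes profilaggrin, was 1.96-fold higher, with a call that ended under 6 of the 16 alternatives. The call of Capn1 ended under 3, and those of Ctsl and Blmh under 1 each. Casp14, the caspase of cornification, read 0.36 on the log2 scale (adjusted p = 0.296, limma).

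Of 3 measured enzymes that handle the lipids of the barrier or are linked to them, Smpd1 was lower and Ctsd was higher in NFFSE. By comparison, 12.7% of all probe sets were called lower and 7.69% higher. Smpd1, an acid sphingomyelinase that makes ceramide, read 369.7, 380.04 and 464 in NFFSE, against 1034, 809 and 954 in NFFS, 2.31-fold lower (adjusted p = 0.000248, limma). Its log2 difference was -1.21, or -0.86 with the mean of its 2 probe sets. Ctsd, the aspartic protease cathepsin D, was 1.73-fold higher, and Asah1, an acid ceramidase, had a log2 difference of 0.17 (adjusted p = 0.304, limma).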
